A study of Macaca mulatta with 60 samples.

Results

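Biceps femoris (BFM), a hamstring muscle, was sampled beside the heart from fetal rhesus monkeys whose dams had eaten bisphenol A (BPA), a plastics chemical with weak estrogenic activity. The members are the 12 BFM arrays among the 60 of the series, chosen by their sample titles. By the fetus numbers in the titles, the other arrays hold the left and right ventricles (LV, RV) and atria (LA, RA) of the same 12 fetuses. All fetuses were female, and each of the 4 BFM groups held 3. Dams of both BPA groups received deuterated BPA at 400 µg/kg body weight once a day in ethanol on fruit, and dams of both control groups received fruit with ethanol alone. Exposure ran from gestation day 50 to day 100 ± 2 in early gestation (EG), with fetuses taken by caesarian section, and from day 100 ± 2 to term in late gestation (LG), with fetuses taken after vaginal delivery. Exposure window, age and mode of delivery can therefore not be told apart when EG is set beside LG. The question was how transcript levels in BFM differed between BPA and control over both windows, with the window as a covariate, and in each window alone.

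Fetal limb muscle grows while myoblasts divide and fuse into fibres, and towards term the fibres take on the contractile proteins and the glucose and fat handling enzymes of working muscle. BPA is studied as an endocrine disruptor because it binds estrogen receptors and has been linked to thyroid hormone signalling and to glucose handling. The arrays also carried small RNAs, among them the U6 RNA of the spliceosome, the signal recognition particle RNA that helps deliver secreted proteins, the Y RNAs, the 7SK RNA that holds a transcription elongation factor inactive, small nucleolar RNAs (SNORDs and SNORAs) that guide changes to ribosomal RNA, and microRNAs.

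Levels are log2 values after robust multi-array averaging (RMA), so a difference of 1 is a 2-fold difference. Of 26149 transcripts, 8609 had an interquartile range of at least 0.5 over the 12 BFM arrays and were tested. A transcript passed the criteria where BPA and control differed by 1 or more on the log2 scale with a limma p, before adjustment, of 0.01 or less, and "rose" and "fell" are used below only for transcripts that passed. Descriptions were at hand for 582 transcripts (2.23%), of which 272 were tested. They are those that the authors tabulated for the heart chambers of the same fetuses, so they are no sample of muscle genes, and most transcripts that passed can be given only by their Ensembl identifier.

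The tissue label was checked with the few described markers. The signal of DHRS7C, a sarcoplasmic reticulum protein of striated muscle, ranked at a median percentile of 98.3 among all transcripts of a BFM array. The other 2 described striated muscle markers ranked low, hexokinase-2 at 26.1 and the microRNA mml-mir-133c at 6.4. Myosin-6, the alpha heavy chain of heart muscle, ranked at 39.2 in BFM and at 99.9 in both atria, and bone morphogenetic protein 10, made in the right atrium, at 17.6 in BFM and at 98.8 in RA. In the ventricles myosin-6 ranked at 53.5 (LV) and 97.8 (RV), bone morphogenetic protein 10 at 9.6 and 18.4, and DHRS7C at 97.0 and 97.7. These markers thus set BFM apart from the atria but not clearly from LV. Ranks depend on the probes too, and the check rests on few genes. Other genes that define skeletal muscle had no description here.

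The windows separated on the first principal component (60.9% of the variance), and array medians lay between 7.61 and 7.74. Replicates spread more in LG, where the median SD within groups was 0.419, against 0.244 in EG. LG BPA fetus 11 stood apart from fetuses 10 and 12 on the second component (10.3% of the variance), at -39.5 against 25.8 and 37.1, and it had the smallest array weight of all 12 (0.32). LG control fetus 8 lay at -27.0 on that component, against -5.3 and 17.2 in its group. The main effects that rest on LG arrays are also given without fetus 11, a choice made after the values of fetus 11 were seen.

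Over both windows 18 of 8609 transcripts passed (0.209%), of which 10 rose and 8 fell. None had an adjusted p of at most 0.05 by limma with Benjamini-Hochberg adjustment (smallest 0.161), and 356 (4.14%) had an unadjusted p of at most 0.05. All 18 lay on the same side of control in both windows, which selection on the difference over both windows favours. Over all tested transcripts the EG and LG effects correlated at 0.10. Of the 18, 11 also passed in LG and 2 in EG (1 of them in both), and 7 still passed with each of the 12 fetuses left out in turn. Without EG control fetus 2 the count was 31, and without LG BPA fetus 11 it was 29. The balance of rises and falls was 9 and 10 without LG control fetus 7 and even after median centring (10 and 10). Without EG BPA fetus 6 it was 18 and 7. Of the 18, 2 were described, and both were U6 spliceosomal RNAs.

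The U6 transcript ENSMMUT00000037347 had levels of 6.49, 5.25 and 7.10 in EG controls and 6.76, 6.91 and 8.36 in EG BPA, and of 5.42, 5.82 and 4.73 in LG controls and 7.32, 8.04 and 7.48 in LG BPA. The groups overlapped in EG and were apart in LG. It rose over both windows by 1.68 ± 0.39 (SE, log2; limma adjusted p = 0.783), and the exact two-sided permutation test within windows gave p = 0.015. It also rose in LG, by 2.29 ± 0.52 (SE) with fetus 11 and 2.07 ± 0.59 (SE) without it, and with array weights the difference was 2.09 and no longer passed. Another U6 transcript, ENSMMUT00000037517, rose by 1.24 ± 0.31 (SE; limma adjusted p = 0.921, exact permutation p = 0.01), and by 1.13 without fetus 11. Its controls lay at 5.31, 6.43 and 7.42 in EG and 5.92, 6.44 and 6.47 in LG, and its BPA fetuses at 6.90, 7.78 and 7.73 and at 7.39, 8.07 and 7.53. LG fetuses were again apart, and in EG control fetus 3 overlapped with BPA fetus 4. U6 is encoded by many near-identical copies, so which copy a probe measured is uncertain.

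The largest rise over both windows was in ENSMMUT00000049775, the only transcript that passed in both windows. Levels were 5.61, 5.31 and 5.30 in EG controls, 7.78, 7.52 and 9.70 in EG BPA, 6.79, 7.47 and 6.86 in LG controls and 8.53, 9.05 and 9.04 in LG BPA. All BPA fetuses lay above all controls of their window. The rise was 2.38 ± 0.35 (SE; limma adjusted p = 0.161), with 2.93 in EG and 1.83 in LG (1.75 without fetus 11).

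Groups did not overlap in either window, on the same side, for 30 of the tested transcripts (0.348%), 16 higher and 14 lower with BPA, and 21 were apart on opposite sides. Among the 18 that passed, 4 were apart in both windows. Beside ENSMMUT00000049775 these were ENSMMUT00000049855, which rose by 1.46 ± 0.31 (SE), ENSMMUT00000037398, which fell by 1.26 ± 0.34 (SE), and ENSMMUT00000036980, which fell by 1.14 ± 0.27 (SE). Without fetus 11 their differences were 1.47, -1.19 and -1.31. The BPA levels of ENSMMUT00000037398, between 4.56 and 5.25, were near the low end of the array values. The fall of ENSMMUT00000037398 was 0.996 without LG control fetus 7 and that of ENSMMUT00000036980 was 0.92 without LG BPA fetus 10, so neither then reached the threshold of 1, and with array weights ENSMMUT00000037398 also fell short of it.

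**Figure D1:**
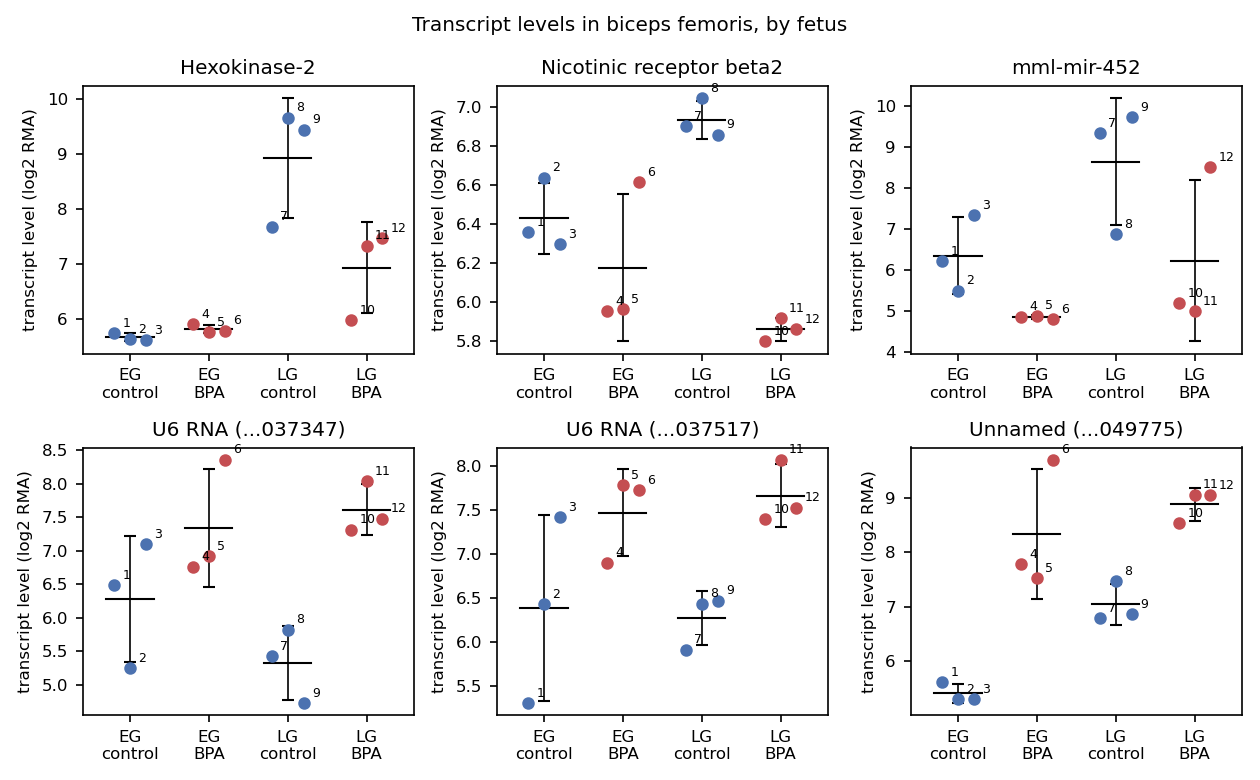
Transcript levels in BFM (log2 RMA, vertical axis) by group (horizontal axis), 1 point per fetus with its number, the line and bar giving the mean ± SD of 3 fetuses. The BPA fetuses of ENSMMUT00000049775 lay above the controls in both windows, hexokinase-2 was apart in opposite directions in EG and LG, and the nicotinic receptor subunit was apart in LG only.

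Genes of fuel use and contraction gave 1 transcript that passed, in LG, of 6 tested, where 0.825% of all tested transcripts passed. Hexokinase-2, the insulin-responsive enzyme that traps glucose in muscle, stood at 7.67, 9.66 and 9.44 in LG controls and at 5.98, 7.33 and 7.47 in LG BPA, so the groups were apart. It fell in LG by 2.0 ± 0.49 (SE; limma adjusted p = 0.479), and by 2.20 ± 0.55 (SE) without fetus 11. In EG all 6 fetuses lay between 5.61 and 5.89, and the difference was 0.15 ± 0.49 (SE) with BPA above control. The exact permutation p of 0.1 in LG is the smallest that 20 splits allow. The LG minus EG difference of -2.15 did not pass, and without fetus 11 it was -2.35 and passed. The LG call was lost without LG control fetus 8 (-1.63) and when the 6 LG arrays were fitted alone. Fewer cells of a type and less RNA per cell cannot be told apart in whole muscle. DHRS7C, the striated muscle marker with a strong signal, differed by -0.11 in LG, and its groups overlapped.

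The other genes of this kind did not pass. Pdk4, the kinase that turns muscle from glucose to fat, differed by -0.94 ± 0.71 (SE) in EG and 0.98 ± 0.71 (SE) in LG, with 10.27, 8.59 and 10.06 in EG controls and 9.80, 8.06 and 8.24 in EG BPA. The groups of Pdk4 overlapped in both windows. Gyg1, the primer of glycogen synthesis, was 11.22, 11.31 and 10.98 in EG controls and 11.70, 11.45 and 11.50 in EG BPA, which did not overlap, but the difference was only 0.38 ± 0.21 (SE). Its LG difference was -0.36 ± 0.21 (SE), and the groups overlapped. Only 1 of the 3 Gyg1 transcript identifiers was on the array. Myosin-6 differed by -0.29 ± 0.55 (SE) over both windows, and LG control fetus 8 was alone at 10.60 where the other 11 fetuses lay between 6.28 and 8.49. The list of contractile, excitation and fuel use genes had 6 tested members of 10 and a median of -0.18 over both windows (-0.06 over all 10), beside -0.0045 for all tested transcripts. In that comparison 0 of the list passed, and 0.209% of all tested transcripts.

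Hormone and matrix genes did not pass either. The thyroid hormone receptor gene Thrb differed by -0.14 ± 0.23 (SE) and the protease gene Adam12, which marks growing muscle, by 0.16 ± 0.25 (SE). In controls, Thrb was 7.37 to 7.56 in EG and 10.08 to 10.80 in LG, and Adam12 went the other way, from 9.60 to 9.87 in EG and 6.35 to 7.80 in LG. Both BPA groups showed the same contrast of windows. The steroid and retinoid list (2 tested of 5) ranged from -0.56 in alcohol dehydrogenase class 4, a retinol oxidising enzyme, to -0.09, and the matrix and growth factor list (6 of 11) from -0.23 in platelet-derived growth factor C to 0.26 in collagen alpha-1(XIX). None of the members passed in any window.

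Among the neuronal genes, the nicotinic acetylcholine receptor subunit beta2, which belongs to the neuronal rather than the muscle form of the receptor, fell in LG by 1.08 ± 0.21 (SE; limma adjusted p = 0.297), and passed with any 1 fetus left out (-1.11 without fetus 11). LG controls lay at 6.90, 7.05 and 6.86 and LG BPA at 5.80, 5.92 and 5.86, which were apart. EG controls were at 6.36, 6.64 and 6.30 and EG BPA at 5.95, 5.96 and 6.61, and these overlapped. Over both windows the difference was -0.67 ± 0.18 (SE; limma adjusted p = 0.977), under the threshold of 1. The mean of 6 nerve markers lay between 5.52 and 6.21 in LG controls and between 5.69 and 5.88 in LG BPA, which overlap. Dihydropyrimidinase-related protein 5, a growing nerve protein, was higher by 0.49 ± 0.20 (SE) and did not pass. Of the 15 genes on the list 5 were tested, and 1 of them passed in LG, where 0.825% of all tested transcripts passed. The LG median of the 5 was 0.16, with 3 above 0.

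Immune genes gave 1 transcript that passed in EG, of 7 tested, and none in LG, where 0.267% and 0.825% of all tested transcripts passed. IFI27L1, one of a family of proteins induced by interferon alpha, was 6.93, 7.11 and 6.71 in EG controls and 7.96, 8.32 and 8.64 in EG BPA. It rose by 1.39 ± 0.38 (SE), but in LG the difference was -0.69 ± 0.38 (SE), where control fetus 7 was at 8.54 and the other 5 fetuses lay between 6.57 and 7.01. The LG minus EG difference was -2.08 and passed, also without fetus 11 (-1.97). Without EG BPA fetus 6 the EG difference was 1.23 and did not pass, and the call was also lost without EG control fetuses 1 or 3 or EG BPA fetus 5. The 6 leukocyte markers had means of 6.95 to 7.03 in EG controls and 6.75 to 6.90 in EG BPA, so they were lower where IFI27L1 was higher, and their part in the result was not tested. An IFIT1-like protein, also of the interferon response, differed by 0.14 in EG and 1.55 in LG (0.90 without fetus 11) and did not pass. The list had 7 tested of 22 members and a median of -0.08 over both windows (-0.03 over all 22).

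In EG, 23 transcripts passed (0.267%), 9 higher and 14 lower, and in LG 71 (0.825%), 43 higher and 28 lower. The EG balance turned on leaving out EG BPA fetus 4 (11 and 8), 5 (13 and 9) or 6 (17 and 12). It also turned in the 6 EG arrays alone (18 and 15) and at an interquartile range of at least 1 (6 and 3). Without LG BPA fetus 11 the EG balance was even (11 and 11). The LG balance was 58 and 60 without LG control fetus 7. By limma with Benjamini-Hochberg adjustment 0 in EG (215 at an unadjusted p of at most 0.05) and 1 in LG had an adjusted p of at most 0.05. From the 6 arrays of a window alone the counts were 33 and 45, of which 16 and 35 were in the 12-array counts, and no adjusted p was below 0.315 in EG or 0.819 in LG. EG groups were apart for 11.6% of tested transcripts and LG groups for 6.18%. With each fetus of the window left out in turn, 3 of the 23 and 20 of the 71 were kept throughout. The 1 transcript past the adjusted threshold, ENSMMUT00000048387, was 6.73, 6.61 and 7.34 in LG controls and 5.16, 5.16 and 5.18 in LG BPA, beside 4.87 to 5.29 in all 6 EG fetuses. It fell in LG by 1.73 ± 0.21 (SE; limma adjusted p = 0.0378), to the level of the EG fetuses, and by 1.72 without fetus 11. Its LG BPA and EG levels were near the low end of the array values.

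The largest EG rise after ENSMMUT00000049775 was in ENSMMUT00000035937, which had levels of 4.98, 5.74 and 5.11 in EG controls and 6.88, 6.66 and 7.80 in EG BPA, and of 5.67, 5.48 and 5.17 in LG controls and 6.54, 7.00 and 5.64 in LG BPA. Its groups were apart in EG, and in LG fetus 12 lay below control fetus 7. It rose by 1.84 ± 0.38 (SE) in EG and by 1.40 ± 0.29 (SE; limma adjusted p = 0.783) over both windows. The 2 largest LG falls with groups apart were in ENSMMUT00000035715 and ENSMMUT00000035396. ENSMMUT00000035715 was 8.50, 5.44 and 7.35 in LG controls. In LG BPA it was 4.65, 4.62 and 5.04, near the low end of the array values. It fell by 2.32 ± 0.63 (SE) in LG and by 1.58 ± 0.48 (SE) over both windows. The LG call was lost on leaving out any of 4 fetuses, among them fetus 11 (-2.25) and LG control fetus 7 (-1.62), and in the 6 LG arrays alone, and the call over both windows on leaving out any of 7 and with array weights (-1.19). ENSMMUT00000035396 was 8.95, 9.34 and 8.80 in LG controls and 4.99, 8.44 and 7.03 in LG BPA. It fell in LG by 2.21 ± 0.64 (SE) and by 3.02 without fetus 11, and the call was lost on leaving out any of 4 other fetuses and in the 6 LG arrays alone.

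Of the 8 described transcripts that passed in LG, 2 were described as protein coding without a gene name. ENSMMUT00000017238 rose by 1.15 ± 0.28 (SE), from 8.45, 8.35 and 9.13 to 9.98, 9.51 and 9.90, and passed with any 1 fetus left out (1.30 without fetus 11). ENSMMUT00000033373 rose by 1.05 ± 0.30 (SE), from 12.44, 11.86 and 11.92 to 13.83, 12.57 and 12.94, but not without LG BPA fetus 10 (0.69), LG control fetus 8 (0.94) or LG control fetus 9 (0.97), while without fetus 11 it was 1.32. The groups of both were apart.

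The effect differed between the windows for 43 transcripts (0.499%), 26 with a more positive and 17 with a more negative effect in LG. That balance turned on leaving out LG control fetus 7 (33 and 40) or EG BPA fetus 4 (17 and 19) or 5 (16 and 19), and it was even without LG control fetus 8 (24 and 24) or LG BPA fetus 12 (29 and 29). By limma with Benjamini-Hochberg adjustment 0 had an adjusted p of at most 0.05, and 242 had an unadjusted p of at most 0.05. The most positive of the 43 was SNORD52, a nucleolar RNA that guides methylation of ribosomal RNA. It lay at 9.44, 6.50 and 7.62 in EG controls and 5.80, 5.78 and 5.99 in EG BPA, but at 6.87, 7.28 and 7.46 in LG controls and 8.98, 9.76 and 8.15 in LG BPA. The groups were apart in both windows, on opposite sides. It fell in EG by 1.99 ± 0.61 (SE), the LG difference of 1.76 ± 0.61 (SE) did not pass, and LG minus EG was 3.75 (3.35 without fetus 11). The EG call was lost on leaving out any of 9 fetuses and in the 6 EG arrays alone, and without EG control fetus 1 the difference was -1.2. An unnamed protein coding transcript, ENSMMUT00000046184, had an LG minus EG difference of -2.07 (-2.26 without fetus 11). With all fetuses it passed in neither window (-1.13 in LG), and without fetus 11 it passed in LG (-1.32). The most negative was ENSMMUT00000009973, at 10.84, 10.78 and 11.22 in LG controls and 7.91, 8.95 and 9.48 in LG BPA, with an LG minus EG difference of -2.43 (-2.52 without fetus 11).

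**Figure D2:**
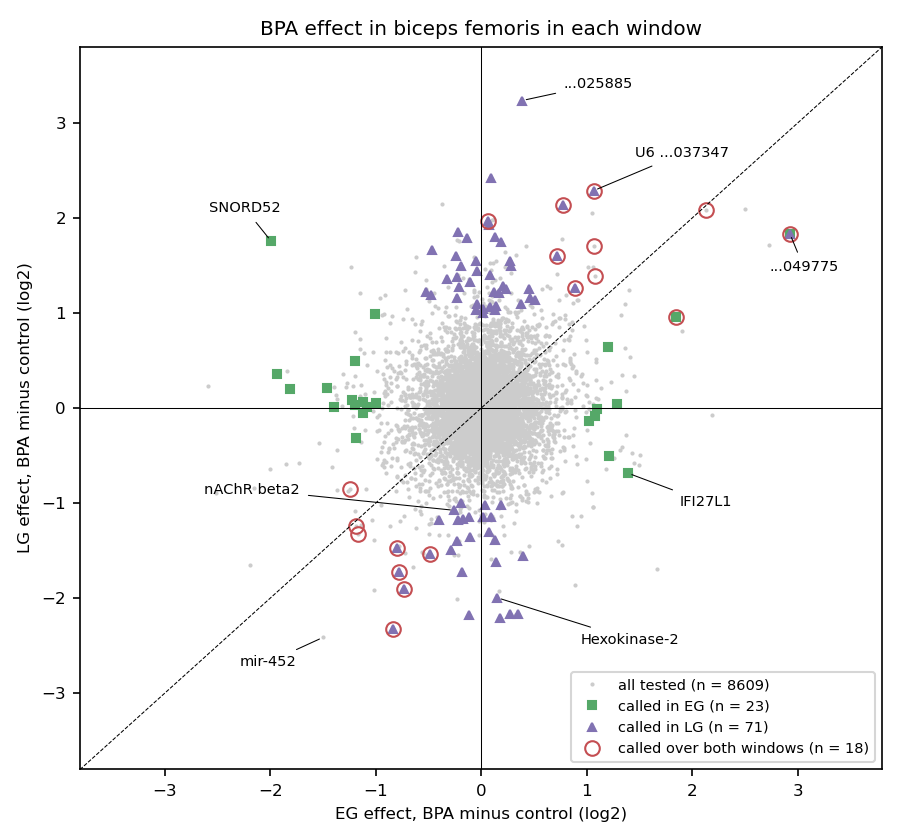
Each point is 1 of 8609 tested transcripts, with its EG effect (horizontal axis) and LG effect (vertical axis), both BPA minus control in log2, and the dashed line marks equal effects. The 18 transcripts called over both windows lie in the upper right and lower left, which their selection favours. Most of the 71 called in LG lie near an EG effect of 0, and SNORD52 lies at -1.99 in EG and 1.76 in LG.

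PMS2CL, a relative of the mismatch repair gene PMS2 with which it shares much of its sequence, was 10.46, 10.25 and 10.14 in EG controls and 11.41, 11.53 and 11.14 in EG BPA. It rose in EG by 1.07 ± 0.27 (SE), and in LG, where control fetuses ran from 10.53 to 11.46, the difference was -0.09, and 0.02 without fetus 11. Leaving out EG BPA fetus 5 (0.99) or EG control fetus 3 ended the call.

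Small RNAs made up 185 of the 272 described transcripts tested (68.0%) and 5 of the 7 described ones that passed in EG, a share near that base, but 4 of the 8 that passed in LG, below it. Of the 185, 2 rose and 0 fell over both windows, 1 rose and 4 fell in EG, and 3 rose and 1 fell in LG. The shares were 1.08% over both windows, 2.70% in EG and 2.16% in LG, beside 0.735%, 2.57% and 2.94% of all described transcripts tested and 0.209%, 0.267% and 0.825% of all tested transcripts. The described transcripts as a whole were thus also above all tested ones, and they were described because of their heart values in the same fetuses. Their median effect over both windows was 0.02. Small RNAs were measured by fewer probes than most other transcripts.

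Spliceosomal RNAs had 58 tested of 88, a median of -0.02 (-0.04 over all 88) and a range from -1.05 to 1.68. Beside the pair that rose, U6 ENSMMUT00000036475 fell in EG by 1.00 ± 0.30 (SE), from 5.99, 5.91 and 6.38 in controls to 4.97, 5.27 and 5.04. Its groups were apart, but the call was lost on leaving out any of the 6 EG fetuses, under trend and robust settings and after further quantile normalization (-0.987), and median centring of the arrays took the difference to -0.995. Signal recognition particle RNAs had 15 tested of 26 and a median of 0.18, which over all 26 was 0.08. Of these ENSMMUT00000050254 was 5.24, 5.16 and 4.94 in EG controls and 6.59, 6.13 and 6.23 in EG BPA, which were apart, and it rose in EG by 1.20 ± 0.30 (SE), which without EG BPA fetus 4 was 1.07 and did not pass. Over both windows its difference was 0.92 ± 0.22 (SE; limma adjusted p = 0.783), and without LG BPA fetus 11 or LG control fetus 9 it reached 1.08 and 1.05 and passed, as it did with array weights (1.08). ENSMMUT00000050204 rose in LG by 1.18 ± 0.35 (SE), from 5.98, 5.30 and 5.99 to 6.76, 6.63 and 7.44, with an LG minus EG difference of 1.66 that passed. Without fetus 11 these were 1.34 and 1.82, and the LG minus EG call was lost with array weights and on leaving out any of 6 fetuses. ENSMMUT00000050581 was lower by 0.66 ± 0.19 (SE) with groups apart in both windows but under the threshold. The LG call of ENSMMUT00000050204 was lost without LG BPA fetus 12 (0.94), LG control fetus 8 (0.96) or LG BPA fetus 10 (1.28), and with array weights (1.20).

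Y RNAs (34 tested of 45, median -0.07, and -0.06 over all 45) gave 1 that passed in EG, where 0.267% of all tested transcripts passed. This was ENSMMUT00000050277, which fell by 1.82 ± 0.56 (SE). Its EG controls spread from 5.54 to 7.94 and its EG BPA fetuses from 4.70 to 5.12, near the low end of the array values. Without EG control fetus 3 the difference was -1.19, and the call was lost on leaving out any of 7 fetuses and in the 6 EG arrays alone. The 7SK RNA ENSMMUT00000050311 fell in LG, where 0.825% of all tested transcripts passed, by 2.17 ± 0.69 (SE), from 8.68, 6.75 and 8.30 to 4.86, 7.36 and 5.00, so fetus 11 overlapped with the controls, and without it the difference was -2.98. That call was lost on leaving out any of 9 fetuses and in the 6 LG arrays alone. It was among 11 tested of 15, with a median of 0.03. Of 10 tested ribosomal RNAs and 22 tested small nucleolar RNAs none passed over both windows, where 0.209% of all tested transcripts passed. The most positive small nucleolar RNA was SNORA57, which guides pseudouridine in ribosomal RNA, at 0.83 ± 0.26 (SE), and the most negative ribosomal RNA was the 5S RNA ENSMMUT00000050262, at -0.98 ± 0.33 (SE). Both had a limma adjusted p of 0.977. SNORA57 passed without LG control fetus 8 (1.02). The 5S RNA passed without EG control fetus 2 (-1.17), EG BPA fetus 5 (-1.11) or LG control fetus 8 (-1.13).

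MicroRNAs (33 tested of 54) had a median of 0.23 over both windows, with 22 above 0, beside 4238 of all 8609 tested transcripts above 0. Over all 54 the median was 0.07, and 0 passed in that comparison, where 0.209% of all tested transcripts passed. In EG, where 0.267% of all tested transcripts passed, 1 fell, an unnamed microRNA (ENSMMUT00000049389), by 1.40 on the log2 scale. The most negative difference over both windows was in mml-mir-452, at 6.21, 5.50 and 7.34 in EG controls, 4.87, 4.89 and 4.81 in EG BPA, 9.33, 6.87 and 9.72 in LG controls and 5.18, 5.00 and 8.50 in LG BPA. EG groups were apart, with EG BPA near the low end of the array values, and in LG BPA fetus 12 lay above control fetus 8. The difference of -1.96 ± 0.64 (SE; limma adjusted p = 0.977) missed the criteria, and it passed with no filter, under trend and robust settings, with median centring or further quantile normalization, and with array weights (-1.75). mml-mir-224, which lies in the same host gene, was between 4.48 and 4.91 on every array, near the lowest values, and did not vary enough to be tested. mml-mir-205 was higher by 0.48 ± 0.17 (SE; exact permutation p = 0.035) and was not tested for the same reason.

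**Figure D3:**
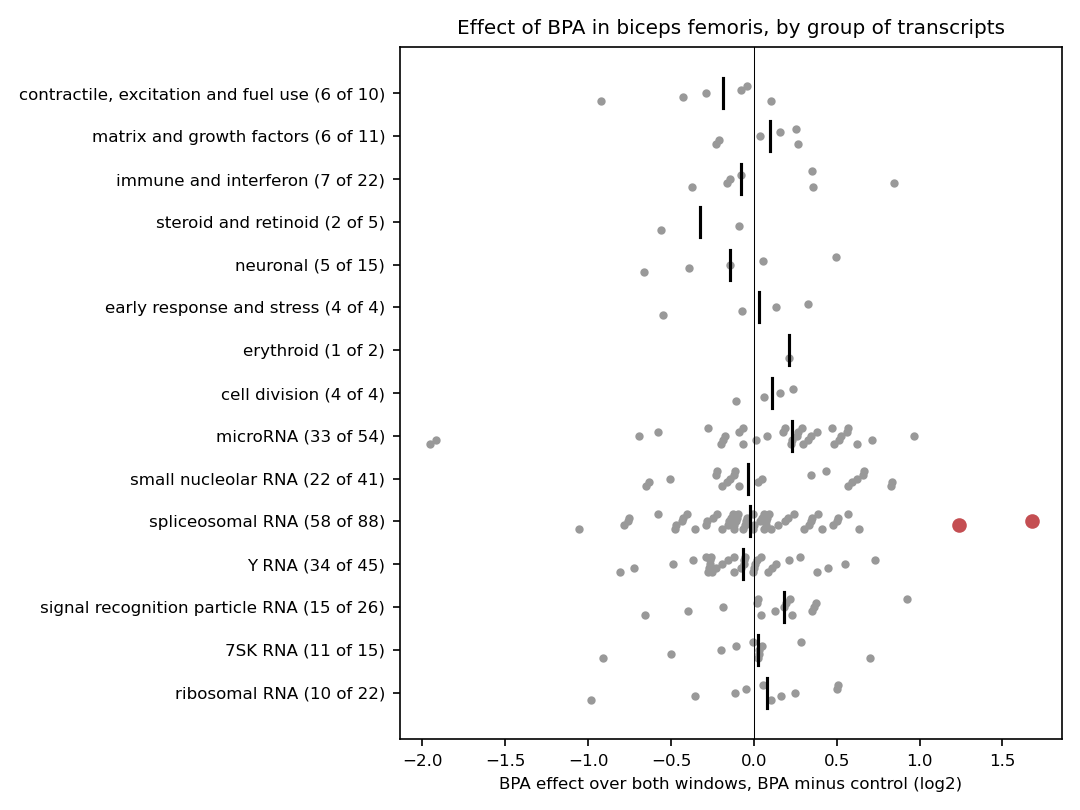
Effect of BPA over both windows (BPA minus control in log2, horizontal axis) for the tested members of each group of transcripts (vertical axis, tested of all in parentheses), with a black line at the group's median and transcripts that passed in red. The 2 red points are U6 RNAs at 1.24 and 1.68, and the group medians lie between -0.32 and 0.23.

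Without LG BPA fetus 11, 248 transcripts passed in LG (2.88%), 147 higher and 101 lower, of which 58 were among the 71. In LG 42 then had an adjusted p of at most 0.05, and over both windows 0 (smallest 0.286). Fetus 11 was singled out after its values were seen, and leaving out the fetus that differs from the other 2 of its group narrows the spread, so these counts are a description. Of the 248, 20 were described, 13 higher and 7 lower, and 8 of the 20 had passed with fetus 11 included. The transcripts named from this set were chosen after their values were seen.

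Among these were 3 of the 4 tested members of the SNORD113/SNORD114 family, nucleolar RNAs from the imprinted DLK1-DIO3 region. RNAs of 1 region need not be independent of each other, and only ENSMMUT00000050957 passed with fetus 11 included. ENSMMUT00000050957 lay between 12.21 and 12.79 in all 6 EG fetuses, at 6.82, 7.25 and 8.43 in LG controls, and at 10.30, 8.03 and 9.53 in LG BPA fetuses 10, 11 and 12. It rose in LG by 1.79 ± 0.52 (SE) with fetus 11 and by 2.42 ± 0.42 (SE; limma adjusted p = 0.0409) without it. The call was lost without fetus 7, 8, 10 (1.28) or 12 and in the 6 LG arrays alone. ENSMMUT00000035699 was at 7.37, 6.06 and 7.58 in LG controls and 9.22, 6.55 and 9.06 in LG BPA, with differences of 1.28 ± 0.62 (SE) with and 2.14 ± 0.39 (SE) without fetus 11. ENSMMUT00000033627 differed by 1.06 ± 0.42 (SE) with and 1.61 ± 0.30 (SE) without. In all of these, fetuses 10 and 12 lay between LG controls and EG fetuses, and fetus 11 lay within the range of LG controls. The remaining member, ENSMMUT00000037756, differed by -0.17 ± 0.69 (SE) in LG, with fetus 9 at 8.91 above every LG BPA fetus.

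A microRNA of the same region, mml-mir-487a, was between 11.02 and 11.31 in EG and at 5.21, 5.68 and 6.62 in LG controls, and LG BPA fetuses 10, 11 and 12 had 6.88, 5.25 and 8.06. Prominin-1, a surface protein of many progenitor cells, was at 6.16, 5.58 and 6.86 in LG controls and 7.28, 5.06 and 8.14 in LG BPA, after 10.52 to 11.10 in EG. Complement factor D, which fat cells secrete, was between 5.47 and 6.00 in EG and at 8.38, 8.81 and 9.41 in LG controls, and LG BPA fetuses had 7.98, 9.73 and 7.17. In each of these, fetuses 10 and 12 lay on the EG side of the LG controls and fetus 11 did not, which is also why they were chosen. Selection without fetus 11 favours transcripts in which it differs from fetuses 10 and 12, so a tally of this order is a description. It was not made over undescribed transcripts. The order held for 10 of the 20 described transcripts, in 6 of them with fetuses 10 and 12 not beyond the EG range, while in 7 all 3 LG BPA fetuses lay on the EG side and in 3 none did. NR4A1, an early response nuclear receptor, was among the last: its EG fetuses were between 7.00 and 7.60, LG controls at 10.42, 8.79 and 9.77, and LG BPA fetuses at 10.86, 9.22 and 11.32. Without fetus 11 the LG differences were 1.63 in mml-mir-487a, 1.51 in prominin-1, -1.29 in complement factor D and 1.43 in NR4A1.

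**Figure D4:**
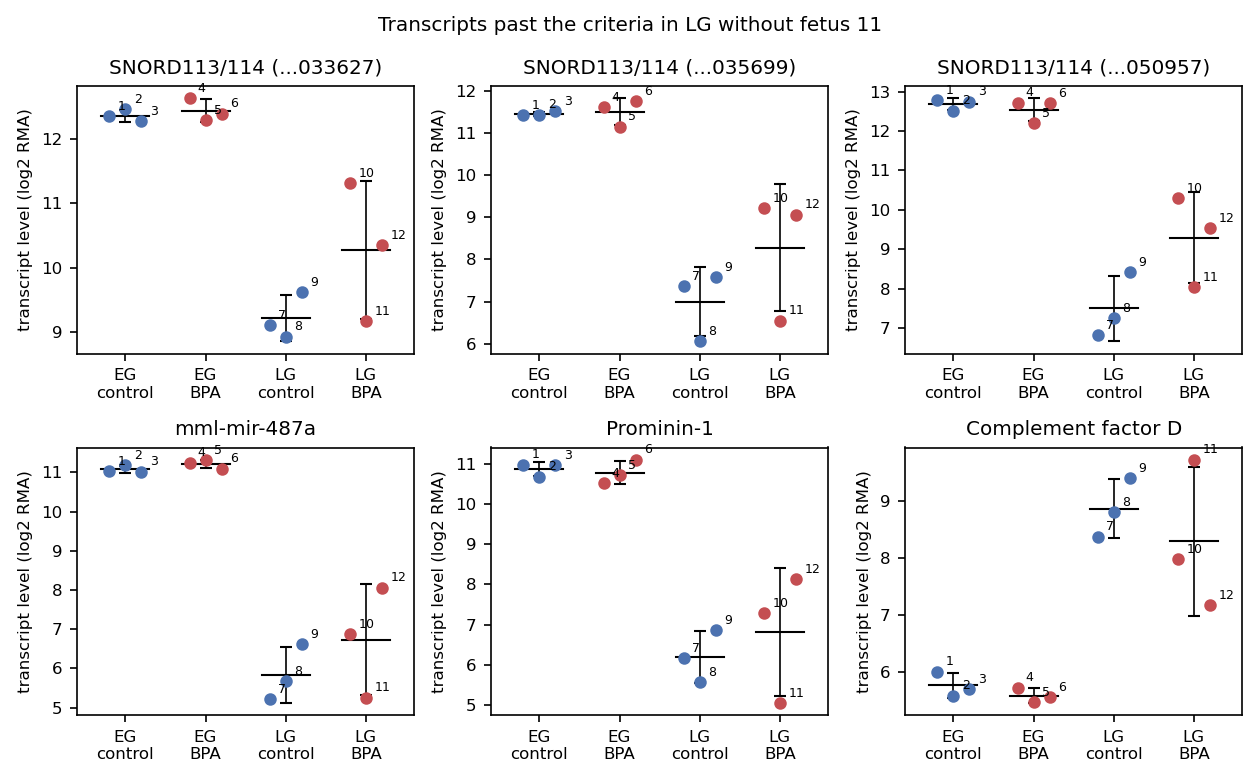
Transcript levels in BFM (log2 RMA, vertical axis) by group (horizontal axis) for 6 described transcripts that passed in LG once fetus 11 was left out, 1 point per fetus with its number, the line and bar giving the mean ± SD of 3 fetuses. In the SNORD113/SNORD114 RNAs, mml-mir-487a and prominin-1, fetuses 10 and 12 lie above all LG controls and below the EG fetuses, while fetus 11 does not.

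ENSMMUT00000025885 gave the largest LG rise, 3.24 ± 1.00 (SE) with fetus 11 and 4.78 without it. It was between 10.44 and 11.49 in EG, at 7.78, 6.19 and 6.37 in LG controls and at 11.43, 6.93 and 11.68 in LG BPA, so that fetuses 10 and 12 were at the EG level and fetus 11 was not. The mean of 4 markers of dividing cells was 6.87 to 7.25 in EG and 5.65 to 6.17 in LG, and BPA and control overlapped in both windows. Their part in these results was not tested.

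The BFM effect over both windows was then set against the mean effect in LV, RV, LA and RA. Without a block for the fetus, 8 transcripts passed (0.0929%), 4 with a more positive and 4 with a more negative effect in BFM. That balance was 4 and 18 without LG control fetus 7, and 16 and 8 with RA alone in place of the 4 chambers. With the fetus as a block, since all 5 tissues came from the same animals, 34 passed (0.395%), 18 and 16. By limma with Benjamini-Hochberg adjustment 0 had an adjusted p of at most 0.05 in either fit (116 and 349 at an unadjusted p of at most 0.05). Of the 8, 4 were described, beside 272 of all 8609 tested. Transcripts were described because of heart values in the same fetuses, and those values enter this difference. The count and the described differences are therefore no independent result.

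Hexokinase-2 was one of them, with a BFM minus heart difference of -1.44, which passed without the block and did not pass with it, also without fetus 11 (-1.58 and -1.45). LG BPA against control was -2.0 ± 0.49 (SE) in BFM, but 0.93 in LV, -0.37 in RV, 1.04 in LA and 0.11 in RA. In LA all BPA fetuses lay above all controls in both windows, but hexokinase-2 has a description here because the authors tabulated it for LA in EG, so its LA values are no independent result. The U6 RNA ENSMMUT00000037517 had a difference of 1.70 and a Y RNA, ENSMMUT00000034186, one of 1.30, and both also passed with the block. The authors tabulated this Y RNA for LV in EG, where it was lower with BPA, and its own BFM effect of 0.73 did not pass. Without fetus 11 the U6 RNA was at 1.55 and passed only without the block (1.46 with it), and the Y RNA at 1.10 passed only with it (1.15). The other described one was an unnamed microRNA, ENSMMUT00000049642, at 1.17, which passed in both fits. The authors tabulated this microRNA for RV in EG, where it was lower with BPA. Among the 8 that passed without the block, the most positive and most negative were ENSMMUT00000025885 at 1.75, which did not pass with the block, and ENSMMUT00000035595 at -2.30, which did. Without fetus 11 they were 2.42, which passed in both fits, and -2.11, which passed only without the block. Among the 34 that passed with the block, the most negative was ENSMMUT00000035715 at -2.35, which did not pass without the block, nor in either fit once fetus 11 was left out (-2.15 without the block and -2.03 with it). The most positive of the 34 was ENSMMUT00000049775, the largest rise over both windows in BFM, at 2.21 (limma adjusted p = 0.753), which did not pass without the block, and its effects over both windows were 0.33 in LV, 0.06 in RV, -0.44 in LA and 0.72 in RA.

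**Figure D5:**
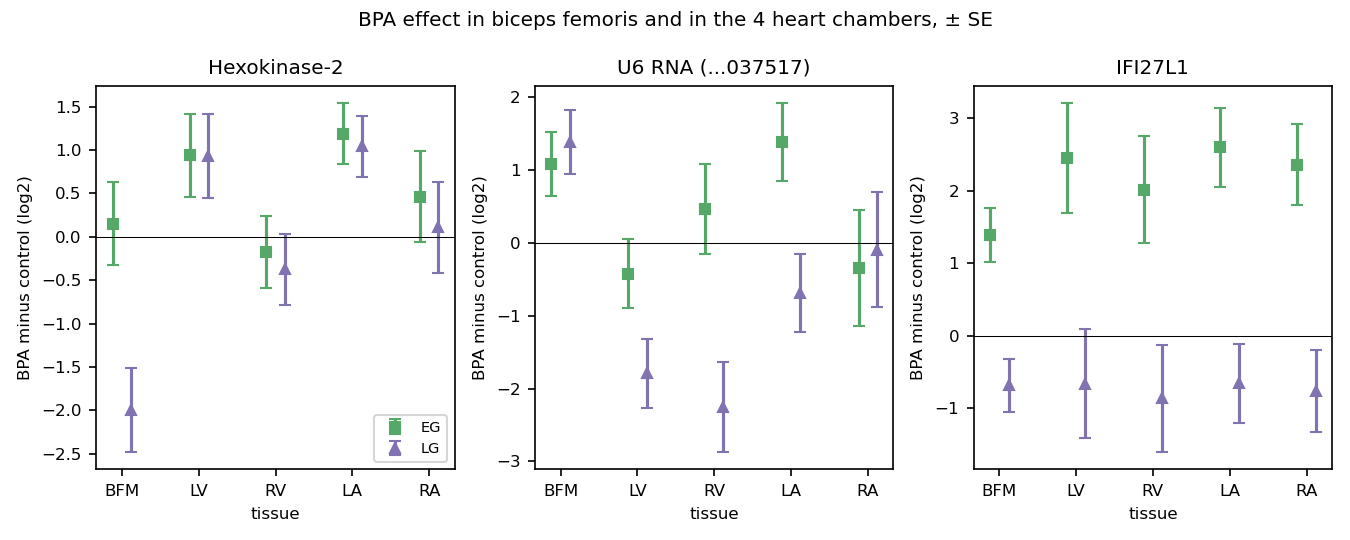
BPA effect (BPA minus control in log2, vertical axis, ± SE) in BFM and the 4 heart chambers (horizontal axis) in EG (squares) and LG (triangles). The LG effect on hexokinase-2 was -2.0 in BFM and 0.93 and 1.04 in LV and LA, while IFI27L1 was above 0 in EG and below 0 in LG in all 5 tissues.

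IFI27L1 followed the fetus across tissues. It, SNORD52 and PMS2CL are described because the authors tabulated them for the heart, so their chamber values are a description. In EG it was higher with BPA by 2.45 in LV, 2.02 in RV, 2.60 in LA and 2.36 in RA, beside 1.39 in BFM, and in each of the 5 tissues every EG BPA fetus lay above every EG control. LG control fetus 7, the highest LG fetus in BFM at 8.54, was also the highest LG fetus in LV (8.49), RV (8.81), LA (9.21) and RA (9.32). SNORD52 showed the same kind of repeat, with EG control fetus 1 at 9.44 in BFM and 9.45 to 9.92 in the chambers, and LG BPA fetus 11 at 9.76 in BFM and 9.32 to 9.80 in the chambers. For PMS2CL, EG BPA fetuses lay above EG controls in BFM, LV, RV and LA, with differences of 1.07, 1.28, 1.02 and 0.46, and overlapped in RA. These repeats are 5 measurements of the same animals and add no fetuses.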

How the data were processed

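The 12 BFM arrays were read from the deposited table of log2 values, which the authors made from custom NimbleGen arrays designed on the Ensembl annotation of the Mmul_1 assembly, by RMA (background correction, quantile normalization and summary of probes per transcript) within each tissue. RNA preparation and slides of BFM are not given in the sources used here, so they cannot be told apart from the groups if they differed, and depth over background is unknown. The number of arrays limits the precision. No sequences were at hand.

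Groups came from the sample titles. Transcripts with an interquartile range below 0.5 were left out, and limma 3.58.1 in R 4.3.3 fitted window and treatment (both windows), 4 group means (each window and LG minus EG), and 20 group means over 60 arrays (BFM minus heart), with the authors' criteria and Benjamini-Hochberg adjustment over all 8609. Exact permutations reassigned fetuses within windows (400 reassignments) or within 1 window (20 splits). Descriptions were kept for the 606 of 606 entries of the authors' tables whose fold change, recomputed from the deposited values, matched within 0.001. Fetus numbers in the titles were taken to name the same animal in every tissue. The deviations of BFM and of the heart of a fetus correlated with a median of 0.117 (over 0.1 in 7 of 12 fetuses, and highest with the own heart within the group in 10, but at -0.056 and -0.023 in LG BPA fetuses 11 and 12, whose BFM correlated more with the heart of another fetus of their group), against -0.0054 between different fetuses.

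Members, lists and tests were chosen with earlier results of these data known. Transcripts were named by rule: described ones past the criteria (with a specific name), the 7 genes the authors followed, the 2 largest rises and falls with groups apart per comparison, the extremes of each list (of these, some that did not pass are left out), any with an adjusted p of at most 0.05, and the extremes of LG minus EG and of BFM minus heart. Described transcripts without a gene name and those named from the fit without fetus 11 are additions. Alternatives were the filter, median centring, quantile normalization, trend and robust settings, array weights (statmod 1.5.0), thresholds, windows alone and each fetus left out. On simulated data with 200 transcripts shifted by 2 in both windows, 97.5% were recovered over both windows, 91.5% in EG and 90% in LG (8609 transcripts), and 19, 23 and 125 unshifted ones also passed. With a shift of 1.5, 93.5%, 85.5% and 82.5% were recovered, and 9, 26 and 122 unshifted ones passed. In the data 18, 23 and 71 passed, which exceeded the unshifted counts only over both windows at a shift of 1.5. The simulated noise was independent and normal, with each transcript's SD taken from the arrays, so recovery need not hold for the named transcripts. Figures used matplotlib.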

Additional observations from a re-analysis of the deposited data

Results flagged for a closer look

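In BFM the BPA effect differed between LG and EG, by the test of that difference at the criteria used, for IFI27L1 (ENSMMUT00000003381, -2.08), SNORD52 (ENSMMUT00000033757, 3.75), the signal recognition particle RNA ENSMMUT00000050204 (1.66, lost on leaving out any of 6 fetuses and with array weights), ENSMMUT00000048387 (-1.54) and ENSMMUT00000009973 (-2.43), all LG minus EG in log2. The effect in BFM differed from the mean effect in the heart for hexokinase-2 (ENSMMUT00000016593, -1.44), the U6 RNA ENSMMUT00000037517 (1.70), the Y RNA ENSMMUT00000034186 (1.30), ENSMMUT00000025885 (1.75) and ENSMMUT00000035595 (-2.30), all BFM minus heart in log2. With the fetus as a block, which fits tissues of the same animals, hexokinase-2 and ENSMMUT00000025885 no longer passed. The described transcripts have names because of heart values of the same fetuses, and those values enter this difference. None of the differences had an adjusted p of at most 0.05 by limma, where 242 and 116 transcripts had an unadjusted p of at most 0.05. Groups of 3 were too small for the check on single outlying samples.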

How the results depend on the processing

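Of the log2 fold changes in the comparisons by which transcripts were named, none that passed or exceeded its standard error changed sign. Differences smaller than their standard error could, among them, without LG BPA fetus 11, Pdk4 at 0.02 and then -0.18 over both windows, Gyg1 at 0.0089 and then -0.0070, and the LG differences of PMS2CL at -0.09 and then 0.02 and of the 5S RNA ENSMMUT00000051013 at -0.50 and then 0.33. With 1 fetus left out the first set kept their side of the criteria in 814 cases, lost it in 69 and gained it in 17, and under the other alternatives in 374, 15 and 6. With each fetus left out in turn, 14 to 31 transcripts passed over both windows, 19 to 35 in EG, 64 to 248 in LG, 35 to 173 for LG minus EG and 7 to 26 for BFM minus heart. The highest counts came without EG control fetus 2 (the first 2) and without LG BPA fetus 11 (the others), and without LG control fetus 7 the LG count was 118. For LG minus EG, 73 passed without LG control fetus 7 and 79 without LG control fetus 9. For BFM minus heart, 22 passed without LG control fetus 7, 21 without LG control fetus 8, 14 without EG control fetus 2, and 13 without EG control fetus 3, EG BPA fetus 6 or LG BPA fetus 12. With no filter 72 passed for LG minus EG. At an interquartile range of at least 1 the counts were 9 in EG, 44 in LG and 19 for LG minus EG. In EG 15 passed once the 25% of transcripts with the lowest means were removed, 15 after further quantile normalization and 45 with array weights, which gave 89 for LG minus EG. With an adjusted p of at most 0.05 alone the counts were 0 over both windows, 0 in EG, 1 in LG, 0 for LG minus EG and 0 for BFM minus heart. With a p of at most 0.01 and no threshold on size they were 84 over both windows, 37 in EG and 111 in LG. From the 6 LG arrays alone 45 passed. For BFM minus heart 34 passed with the fetus as a replicate block and 24 with RA in place of the 4 chambers. Without LG BPA fetus 11, an alternative chosen after seeing the data, 0 over both windows and 42 in LG had an adjusted p of at most 0.05. The share of LG minus EG calls that were positive was 60.5%, and 48% after median centring, and below 50% without LG control fetus 7 or EG BPA fetus 4 or 5. No list median moved beyond its spread. The causes were not tested. Groups of 3 fetuses limit what can be seen, descriptions cover 2.23% of transcripts, and small RNAs rest on few probes.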
